A study of Mus musculus with 16 samples.

Results

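Interleukin 4, interleukin 5, interleukin 13 and interleukin 9, the receptors that bind them and the factors that switch them on or carry their signal were followed in the allergen-challenged lungs of 16 adult Balb/c mice. The genes were Il4, Il5, Il13, Il9, Il4ra, Il13ra1, Il13ra2, Il5ra, Gata3 and Stat6, 10 of 18193 genes with a probe set of exactly 1 symbol on an Affymetrix whole-genome mouse array. They were taken by name, with earlier results of these data known, and all 10 were found, on 17 of 45037 probe sets. Counts among them are therefore descriptions and no independent evidence of a direction. Il13ra1 had 5 probe sets, Il4ra had 3, Stat6 had 2 and the other 7 genes had 1 each. A probe set is a group of short probes read together as 1 value, given here as a log2 intensity, on which 1 unit is a doubling.

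The mice formed 4 groups of 4, each mouse giving its left lung at 23 weeks of age. SHS females and SHS males came from pregnancies under second-hand smoke (SHS), for which sidestream smoke stood in, at 10 mg/m3 of suspended particles, 5 h a day on 7 days a week. Air females and air males came from pregnancies under filtered air. All 16 mice carried the same later treatment, injections of ovalbumin (OVA, an egg protein used as an allergen) at 19 and 21 weeks and OVA aerosol every other day in weeks 22 and 23. No lung without OVA was analysed here, so each difference is between smoke and air in lungs already challenged with an allergen. The labels name no litter or mother, and the p-values measure the spread between these mice. The left lung was taken whole, so fewer cells of a type and less RNA per cell cannot be told apart. SHS and air arrays were compared within each sex, and levels of females were not set against levels of males.

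In a type 2 immune response, T helper 2 (Th2) cells and group 2 innate lymphoid cells (ILC2) release IL-4, IL-5 and IL-13 under the control of the transcription factor GATA3. IL-5 sustains eosinophils through the receptor chain encoded by Il5ra. IL-4 and IL-13 share a receptor built from the chains encoded by Il4ra and Il13ra1, which activates STAT6 and drives mucus production, alternatively activated macrophages and eosinophil-attracting chemokines in the asthmatic lung. The chain encoded by Il13ra2 binds IL-13 tightly and is best known as a decoy, and it is itself induced by IL-4 and IL-13.

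Il13ra2 had the largest difference of the 17 probe sets and rose after SHS in both sexes, 1.75-fold in females and 2.24-fold in males. Il13ra1, the chain that signals together with Il4ra, moved the other way. Each of its 5 probe sets had a negative log2 difference in both sexes, between -0.38 and -0.05. A different one passed the test in each sex, 1427165_at in females and 1454783_at in males, and none passed in both. Il5, Il13 and 1 probe set of Il4ra did not pass in either sex alone but rose in the difference averaged over the sexes. Il9, Il5ra, Gata3 and Stat6 passed in no comparison. Over the 17 probe sets the median log2 difference was -0.02 in females, -0.04 in males and -0.04 in the average, against -0.01, 0.00 and -0.01 over all probe sets.

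The arrays of each sex were alike, with correlations of 0.990 to 0.998 between any pair of arrays. SHS female replicate 4 stood apart, with a mean correlation of 0.992 to the other SHS females and of 0.995 to the air females. SHS female replicate 4 and SHS male replicate 4 also had the lowest mean over 6 eosinophil markers, 7.15 and 7.58, against 7.98 or more in the other 14 arrays. Counts were also computed without both of these arrays. They are SHS lungs picked by markers that include Il5ra and belong to the same response, and SHS male replicate 4 did not stand apart by correlation, so larger SHS differences without them follow in part from the choice and support nothing here. As a check of the tissue, Sftpc, the surfactant gene of alveolar type 2 cells, averaged 15.12 in SHS females, 15.09 in air females, 15.10 in SHS males and 15.09 in air males, near the highest value of the arrays.

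Among the cytokine genes, those at the Th2 locus on mouse chromosome 11 had positive differences and Il9 on chromosome 13 did not. In the RefSeq annotation of GRCm38.p6, Il4 (53612460 to 53618665) and Il13 (53631323 to 53634702) lie 12657 bases apart, and Rad50 separates Il13 from Il5 (53720794 to 53725103). The 250 bases upstream of the annotated starts of Il13 and Il5, whose differences passed the test in the averaged comparison, are shown from RefSeq, build GRCm38.p6, as letters of the coding strand. Capitals mark GATA or its reverse complement TATC, the core of the motif that GATA3 recognises.
Il13, chr11:53634703-53634952, minus strand: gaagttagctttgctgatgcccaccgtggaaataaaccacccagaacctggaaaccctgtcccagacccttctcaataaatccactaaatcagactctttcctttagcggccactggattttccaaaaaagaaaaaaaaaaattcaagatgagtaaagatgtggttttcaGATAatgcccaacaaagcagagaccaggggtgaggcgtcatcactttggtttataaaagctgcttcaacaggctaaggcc
Il5, chr11:53720544-53720793, plus strand: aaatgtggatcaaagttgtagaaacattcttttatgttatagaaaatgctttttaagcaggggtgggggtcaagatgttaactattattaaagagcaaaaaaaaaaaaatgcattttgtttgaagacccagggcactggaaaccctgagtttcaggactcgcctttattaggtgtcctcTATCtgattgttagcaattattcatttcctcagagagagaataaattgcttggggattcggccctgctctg
The core begins 80 bases before the start in Il13 and 71 bases before it in Il5. At least 1 such core was present in 7 of the 11 annotated windows of the 10 genes and in 53.6% of 32817 mouse windows of the same length, so its presence is common and describes the letters only.

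Il13, the cytokine that drives mucus and airway hyperreactivity, had log2 values of 7.15, 7.82, 7.36 and 6.65 in SHS females, against 6.61, 7.04, 6.62 and 6.84 in air females. SHS female replicate 4 lay among the air females, and the other 3 lay above all of them. In males Il13 had 7.32, 7.36, 6.92 and 7.03 after SHS, against 6.65, 6.73, 6.23 and 6.78 after air, and every SHS male lay above every air male. The log2 differences of 0.47 ± 0.19 in females and 0.56 ± 0.19 in males (SE of the model, n = 4 and 4) did not pass the test (limma adjusted p = 0.217 and 0.0965). Averaged over the sexes the difference of 0.52 ± 0.13, 1.43-fold, passed (limma adjusted p = 0.0192), with 7 of 8 SHS arrays above the air mean of their sex.

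Il5, the growth and survival factor of eosinophils, had 5.63, 6.04, 5.74 and 5.32 in SHS females and 5.27, 5.37, 5.18 and 5.06 in air females. In males it had 5.72, 5.69, 5.59 and 5.14 after SHS and 5.28, 5.28, 5.15 and 4.95 after air. In each sex replicate 4 was the only SHS array that fell within the range of the air arrays. The differences were 0.47 ± 0.14 in females (limma adjusted p = 0.0866) and 0.37 ± 0.14 in males (limma adjusted p = 0.144), and the average of 0.42 ± 0.10, 1.34-fold, passed (limma adjusted p = 0.0113). The probe set was dim, with a mean over all arrays at the 25.5th percentile of probe sets, and the deposited table gives no detection call.

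Il4, which commits T cells to the Th2 fate and B cells to IgE, had 6.81, 6.71, 6.78 and 6.17 in SHS females, against 6.06, 6.30, 6.48 and 6.18 in air females. In males the values were 7.23, 7.10, 6.74 and 6.63 after SHS and 6.26, 6.90, 6.45 and 6.72 after air. The groups overlapped in both sexes, again through SHS female replicate 4 in females. The differences of 0.36 ± 0.16 in females, 0.34 ± 0.16 in males and 0.35 ± 0.12 in the average did not pass (limma adjusted p = 0.28, 0.254 and 0.0619). The averaged difference passed with array weights (0.43, adjusted p = 0.00933), after dropping the dimmest 40% of probe sets (0.35, adjusted p = 0.0448), and without SHS female replicate 4 (0.43, adjusted p = 0.0101), air male replicate 2 (0.41, adjusted p = 0.0346) or SHS male replicate 4 (0.40, adjusted p = 0.0341). It did not pass under quantile normalization, median centring, a replicate block or a trended robust prior (limma adjusted p = 0.0595, 0.0656, 0.0552 and 0.0538). With 1 array left out it passed in 3 of 16 fits, and the highest adjusted p was 0.131, without SHS male replicate 1.

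Leaving out 1 array changed some within-sex calls, and calls were gained mostly where the array was a low SHS lung. Il4 passed in females without SHS female replicate 4 (0.51, limma adjusted p = 0.0493). Il5 passed in females without SHS female replicate 4 (0.59, limma adjusted p = 0.0118) or SHS male replicate 4 (0.47, adjusted p = 0.0473) and in males without SHS male replicate 4 (0.50, adjusted p = 0.0391). Il13 passed in females without SHS female replicate 4 (0.67, limma adjusted p = 0.0183) and in males without SHS female replicate 2 or 4 (0.56 in each, adjusted p = 0.0432 and 0.0347). Il13 also passed in males with array weights (0.58, limma adjusted p = 0.0259) and in a fit of the 8 male arrays alone (0.56, adjusted p = 0.0401). With array weights Il5 passed in females (0.47, limma adjusted p = 0.0179) and in males (0.42, limma adjusted p = 0.0302). Of 7 settings other than leaving out 1 array, Il5 passed in 3 in each sex. Without SHS female replicate 2, the highest SHS female on 10 of the 17 probe sets, the female differences were smaller. They were then 0.28 for Il13 and 0.35 for Il5 (limma adjusted p = 0.492 and 0.247). With 1 array left out the highest adjusted p was 0.509 for Il4 in females, and 0.519, 0.311 and 0.26 for Il4, Il5 and Il13 in males. The averaged differences of Il5 and Il13 kept their call with any 1 of the 16 arrays left out, at 0.36 to 0.48 for Il5 and 0.42 to 0.62 for Il13 (highest adjusted p = 0.0286 and 0.0441).

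Il9, a cytokine of mast cells, mucus and Th9 cells, lay between 6.28 and 6.43 in SHS females and between 6.20 and 6.47 in air females. In males it lay between 6.03 and 6.46 after SHS and between 6.13 and 6.31 after air, so the groups overlapped in both sexes. The averaged difference was -0.03 with a 95% interval of -0.16 to 0.10 (limma adjusted p = 0.811).

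T cell markers are given beside the cytokines because T cells are a main source of them. The mean over 10 measured T cell markers was 7.66 to 7.93 in SHS females and 7.46 to 7.60 in air females, without overlap, and 7.34 to 7.46 in SHS males and 7.23 to 7.53 in air males, with overlap. Their median log2 difference was 0.23 in females, 0.02 in males and 0.13 in the average, against -0.01 over all probe sets in the average, and 9, 7 and 10 of the 10 were above 0. Only Cd8b1 passed, in females (0.40, limma adjusted p = 0.0304), where 2.87% of all probe sets passed, and none passed in the average. The part of T cell number in the cytokine differences was not tested.

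**Figure D1:**
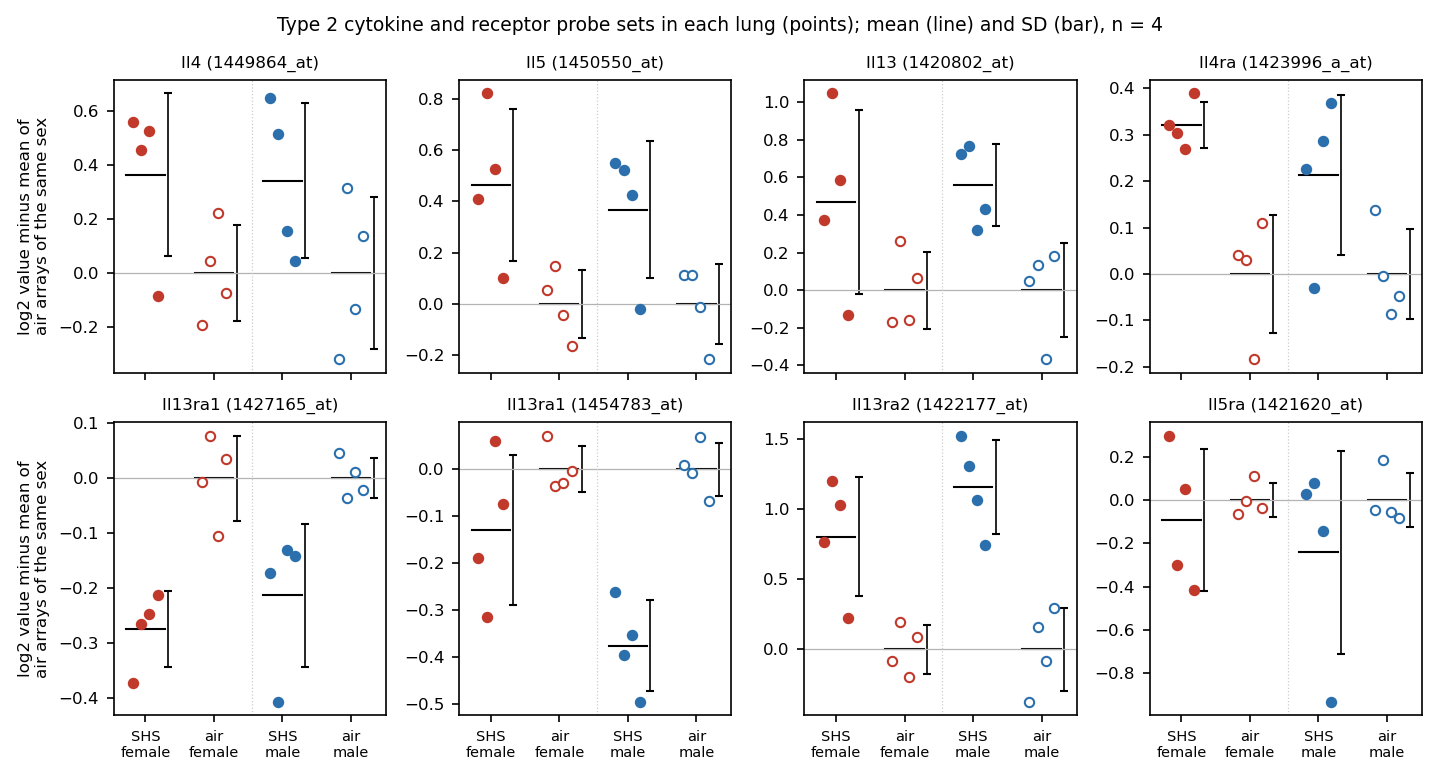
Each panel plots 1 probe set, with the log2 value of each lung minus the mean of the air lungs of the same sex on the y axis; points are lungs, lines are group means and bars are SD (n = 4), filled for SHS and open for air. All SHS points of Il13ra2 lie above the air points of their sex and all SHS points of Il13ra1 on 1427165_at lie below them, while the lowest SHS female point of Il4, Il5 and Il13 lies among the air females.

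Among the receptor genes, both IL-13 receptor chains lie on the X chromosome. The 250 bases upstream of their starts are shown because these members passed the test within a sex, in opposite directions (RefSeq, build GRCm38.p6, coding strand, capitals as before).
Il13ra2, chrX:147429193-147429442, minus strand: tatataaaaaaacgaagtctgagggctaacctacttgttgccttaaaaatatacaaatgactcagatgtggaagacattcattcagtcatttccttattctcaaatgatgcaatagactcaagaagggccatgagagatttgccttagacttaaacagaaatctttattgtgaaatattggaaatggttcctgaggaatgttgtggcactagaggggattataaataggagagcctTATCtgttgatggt
Il13ra1, chrX:36111858-36112107, plus strand: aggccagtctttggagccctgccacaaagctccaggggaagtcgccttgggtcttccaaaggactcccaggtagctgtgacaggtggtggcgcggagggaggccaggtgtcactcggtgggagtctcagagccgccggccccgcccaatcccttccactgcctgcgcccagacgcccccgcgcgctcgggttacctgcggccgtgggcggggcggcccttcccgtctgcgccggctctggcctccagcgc
The Il13ra2 window holds 1 GATA core, beginning 14 bases before the start, and the Il13ra1 window holds none. The paired half-sites TTCNNNNGAA and TTCNNNGAA, read alike on both strands, are forms bound by STAT6 and related factors. Neither spacing was found in either window. The first was found in 2 of the 11 windows of the members, upstream of Il4 and Il9, and in 5.85% of all windows, and the second in 0 of 11 and in 7.01% of all. No match says only that these letters are not in this window.

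Il13ra2 had 7.59, 8.02, 7.86 and 7.05 in SHS females, against 6.74, 7.02, 6.63 and 6.91 in air females. In males it had 8.54, 8.32, 8.08 and 7.76 after SHS, against 6.64, 7.17, 6.93 and 7.31 after air. Every SHS lung lay above every air lung of its sex, by the least in SHS female replicate 4. The difference was 0.81 ± 0.19 in females (limma adjusted p = 0.0307) and 1.16 ± 0.19 in males (limma adjusted p = 0.0024), and the average of 0.98 ± 0.14 corresponds to 1.98-fold (limma adjusted p = 0.000166). The female and male effects differed by -0.36 ± 0.27 (females minus males, 95% interval -0.93 to 0.22, limma adjusted p = 0.768). The call in males and the averaged call held with any 1 array left out. The call in females was lost without air female replicate 1, 2, 3 or 4 or SHS female replicate 1, 2 or 3, where the difference was 0.67 to 0.87 and adjusted p 0.0518 to 0.11, and in a fit of the 8 female arrays alone (adjusted p = 0.061).

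Il13ra1, which joins the IL-4 receptor alpha chain in the type II receptor, was read by 5 probe sets. Probe sets 1427164_at and 1427165_at are annotated to 1 accession and 1425625_at and 1451775_s_at to another, so the 5 are not independent. On 1427165_at the values were 9.25, 9.35, 9.37 and 9.40 in SHS females and 9.61, 9.69, 9.51 and 9.65 in air females. In males they were 7.83, 7.60, 7.87 and 7.86 after SHS and 8.05, 7.97, 8.01 and 7.98 after air. All SHS lungs lay below all air lungs of their sex. This probe set fell by 0.27 ± 0.07 in females (limma adjusted p = 0.0449), differed by -0.21 ± 0.07 in males (limma adjusted p = 0.0931) and fell by 0.24 ± 0.05 in the average (limma adjusted p = 0.00433).

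On 1454783_at the male values were 8.92, 8.79, 8.83 and 8.69 after SHS and 9.19, 9.18, 9.25 and 9.12 after air, again without overlap. The female values were 8.82, 8.70, 9.07 and 8.94 after SHS and 9.08, 8.98, 8.98 and 9.01 after air, and overlapped. It fell by 0.38 ± 0.08 in males (limma adjusted p = 0.0093), differed by -0.13 ± 0.08 in females (limma adjusted p = 0.451) and fell by 0.25 ± 0.05 in the average (limma adjusted p = 0.00619). Its difference between the sexes, 0.25 ± 0.11 (females minus males), did not pass (limma adjusted p = 0.586). The other 3 probe sets had averaged differences of -0.09, -0.10 and -0.13, none of which passed (limma adjusted p = 0.507, 0.321 and 0.111).

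The call of 1427165_at in females was near the threshold. It held only without SHS female replicate 4, SHS male replicate 2 or SHS male replicate 4, and was lost with any of the other 13 arrays left out, where the difference was -0.31 to -0.24 and the highest adjusted p 0.148, without SHS female replicate 1. The averaged calls of both Il13ra1 probe sets and the male call of 1454783_at held with any 1 array left out.

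Il4ra, the chain shared by both IL-4 receptor types, was read by 3 probe sets that disagreed in part. On 1423996_a_at the values were 9.73, 9.71, 9.68 and 9.80 in SHS females, all above the 9.45, 9.44, 9.22 and 9.52 in air females. In males they were 7.78, 7.52, 7.84 and 7.92 after SHS and 7.69, 7.55, 7.46 and 7.50 after air, with overlap through SHS male replicate 2. This probe set differed by 0.32 ± 0.09 in females (limma adjusted p = 0.0545) and 0.21 ± 0.09 in males (limma adjusted p = 0.172), and the average of 0.27 ± 0.06, 1.20-fold, passed (limma adjusted p = 0.00903), also with any 1 array left out. In females alone it passed without SHS male replicate 2 or 4 (limma adjusted p = 0.0314 and 0.0465). It also passed there in 4 of 8 settings other than leaving out 1 array. These were array weights, dropping the dimmest 40% of probe sets, a trended robust prior and a replicate block (limma adjusted p = 0.0332, 0.0308, 0.0374 and 0.0478). The probe sets 1421034_a_at and 1447858_x_at had averaged differences of 0.14 and 0.12 (limma adjusted p = 0.181 and 0.435), and the second of them was at -0.02 in females.

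Il5ra, the IL-5 binding chain of eosinophils and some B cells, had 7.52, 6.93, 7.27 and 6.81 in SHS females and 7.16, 7.22, 7.33 and 7.19 in air females. In males it had 8.16, 8.21, 7.99 and 7.20 after SHS and 8.08, 8.32, 8.08 and 8.05 after air. The SHS values spread further than the air values in each sex and the groups overlapped, with replicate 4 the lowest SHS array in both. The averaged difference was -0.17 ± 0.13 (limma adjusted p = 0.471). The mean over 6 eosinophil markers, of which Il5ra is 1, ran from 7.15 to 8.88 in SHS females and from 7.98 to 8.19 in air females, and from 7.58 to 8.70 in SHS males and from 8.01 to 8.37 in air males. None of these 6 markers passed in either sex, among them Epx (0.79 in females and 0.94 in males) and Siglecf (-0.32 and -0.54), and the part of eosinophil number in the Il5ra values was not tested.

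Of the transcription factors, Gata3, the master regulator of Th2 cells and ILC2, had 7.60, 7.79, 7.74 and 7.54 in SHS females and 8.27, 7.65, 7.54 and 7.51 in air females. In males it had 8.17, 8.15, 7.86 and 7.75 after SHS and 8.19, 8.15, 7.84 and 8.09 after air. Air female replicate 1 was the highest female, and the groups overlapped in both sexes. The averaged difference was -0.08 with a 95% interval of -0.29 to 0.13 (limma adjusted p = 0.699). Stat6, which carries the IL-4 and IL-13 signal to the nucleus, was read by 2 bright probe sets with averaged differences of -0.06 on 1421708_a_at (95% interval -0.17 to 0.05) and -0.04 on 1426353_at (95% interval -0.14 to 0.07). Neither passed (limma adjusted p = 0.581 and 0.71). The intervals bound the averaged change of Stat6 more tightly than that of Gata3.

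In all, 2 of the 17 probe sets passed in females, 1 higher and 1 lower, where 2.87% of all probe sets passed (2.36% higher and 0.517% lower). In males 2 passed, 1 higher and 1 lower, where 5.18% of all did (3.07% higher and 2.11% lower). In the average 6 passed, 4 higher and 2 lower, where 10.3% of all did (6.65% higher and 3.67% lower). Of the probe sets called in females 82.0% were higher, or 70.6% after quantile normalization. Every SHS array lay above every air array for 2 probe sets in females and 2 in males, where 5.61% and 7.87% of all did so, and below for 1 and 2, where 2.64% and 7.51% did. It lay above in both sexes for 1 of the 17 (2.43% of all) and below in both for 1 (0.508% of all). At an unadjusted p under 0.05, 5 were higher and 2 lower in each sex, where 9.88% and 6.16% of all were in females (16.0% together) and 10.3% and 9.86% in males (20.2% together). In the average 6 were higher and 3 lower, where 12.7% and 10.9% were (23.7% together). The difference between the sexes passed for 0 of 17 and for 0 of 45037 probe sets in limma (0%), in each alternative fit too. At an unadjusted p under 0.05 it passed for 1 of the 17 and for 8.24% of all (4.46% above 0 and 3.77% below).

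**Figure D2:**
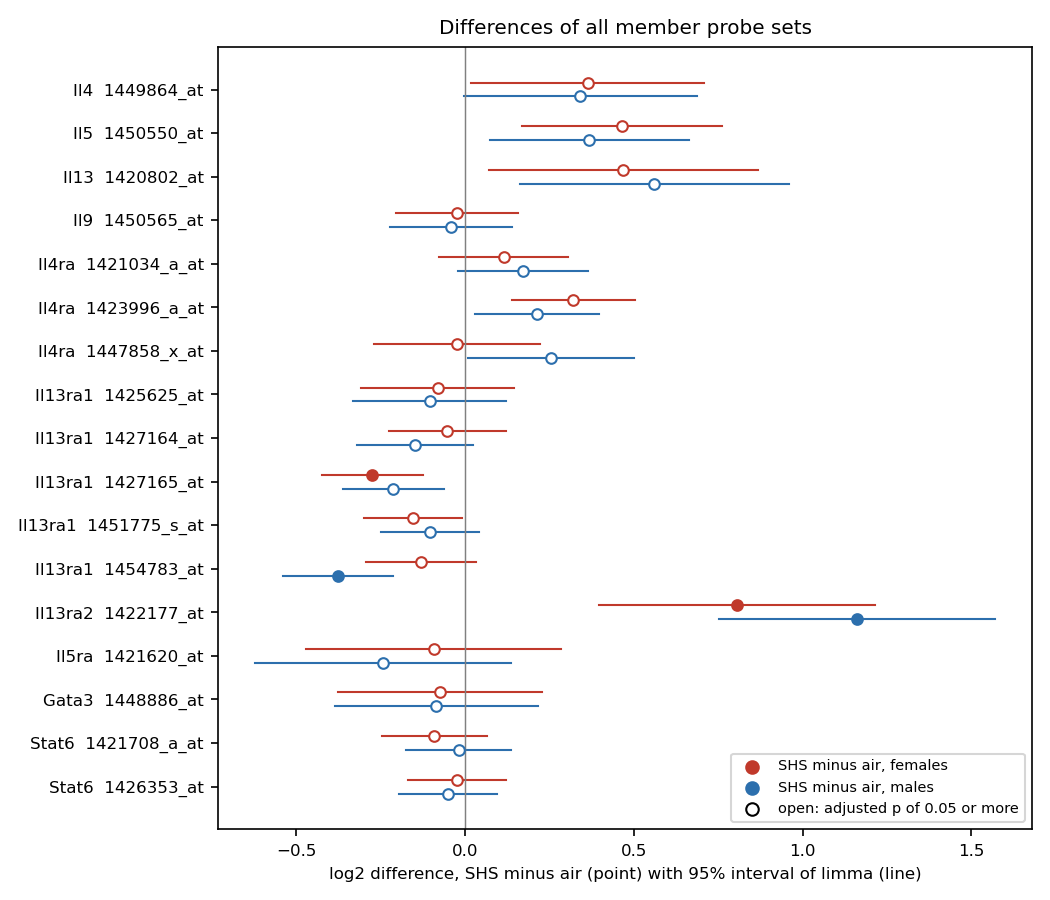
The plot of differences gives, for each of the 17 probe sets, the log2 difference of SHS minus air in females (red, upper) and males (blue, lower) with its 95% interval; filled points passed at an adjusted p under 0.05. Il13ra2 lies furthest to the right at 0.81 and 1.16, and all 5 probe sets of Il13ra1 lie left of 0 in both sexes.

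**Figure D3:**
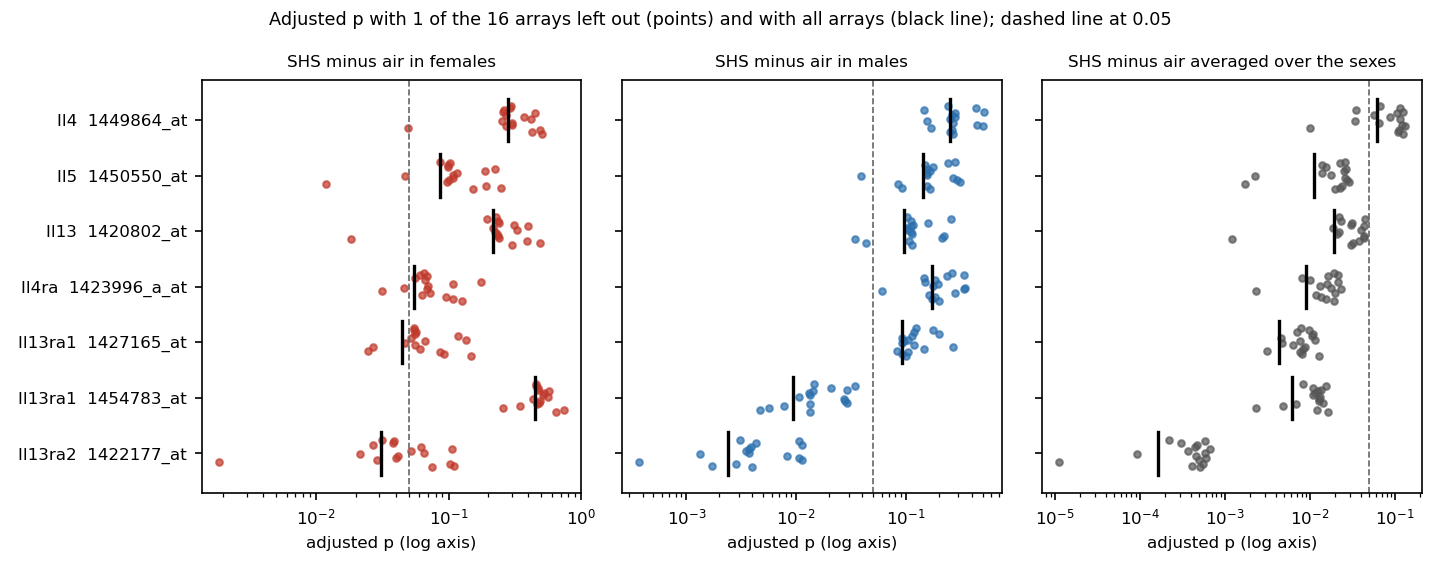
For the members that passed in any comparison, and Il4, the plot gives the adjusted p (log axis) with each of the 16 arrays left out in turn (points) and with all arrays (black line), for females, males and the average. In the average all points of the 6 called probe sets lie under 0.05, whereas in females the points of Il13ra2 and Il13ra1 lie on both sides of it.

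The genes around the members were described by 8 lists with 111 measured genes, each gene represented by its brightest probe set. The lists were drawn up with earlier results of these data known, so their counts are descriptions and no independent evidence of a direction. Of all probe sets 2.36% were called higher in females, 3.07% in males and 6.65% in the average, and a list with 1 call says little beside that. Of 28 measured targets of IL-4, IL-13 and STAT6, 11 rose in females, 18 in males and 20 in the average, and none fell, with a median log2 difference of 0.38, 0.61 and 0.49. In the average Timp1, an inhibitor of metalloproteinases, rose by 2.28 ± 0.16, Arg1, the arginase of alternatively activated macrophages, by 2.24 ± 0.36 and the eotaxin Ccl24 by 2.20 ± 0.37 (limma adjusted p = 6.38e-07, 0.000632 and 0.000803). Saa3, an acute-phase gene, rose by 2.13 ± 0.23 (limma adjusted p = 1.57e-05). These genes also answer to other signals. With 1 array left out the count was 19 to 22 in the average, but 5 to 16 in females (5 to 7 without air female replicate 2, 3 or 4 or SHS female replicate 1, 2 or 3, and 16 without SHS female replicate 4) and 8 to 20 in males (8 to 11 without air male replicate 1 or 3 or SHS male replicate 1, 2 or 3). Without both SHS arrays numbered 4 it was 16 in females, 18 in males and 23 in the average, all higher.

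Genes that damp cytokine signals were among those called in the list of signal adaptors and feedback, where 3 of 12 rose in females, 4 in males and 3 in the average. Socs1, which blocks Janus kinases, rose by 0.64 ± 0.09, Cish, an inhibitor induced through STAT5, by 0.63 ± 0.08 and Socs3, an inhibitor of IL-6 family signals, by 0.61 ± 0.07 in the average (limma adjusted p = 0.000209, 0.000101 and 4.5e-05). The list median was 0.04 in females, 0.16 in males and 0.09 in the average. Of 9 shared receptor chains and kinases 1 rose in each sex and in the average, Jak3, the kinase of the common gamma chain, at 0.48 ± 0.08 in the average (limma adjusted p = 0.000778), and the list medians were 0.18, 0.08 and 0.13.

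Of 17 factors of Th2 and Th9 cells, 2 rose in females, 1 rose and 1 fell in males, and 2 rose and 1 fell in the average, with medians of 0.17, 0.01 and 0.07. In the average Irf4, a factor of Th2 and Th9 cells and of plasma cells, rose by 0.56 ± 0.14 and Batf, its partner in T cells, by 0.30 ± 0.05, while Etv5 fell by 0.27 ± 0.07 (limma adjusted p = 0.0126, 0.00104 and 0.0136). Of 12 opposing regulators, which favour Th1 or other fates, 1 rose in females, none passed in males and 2 rose in the average, Runx3 at 0.48 ± 0.10 and Stat4, which carries the IL-12 signal, at 0.31 ± 0.06 (limma adjusted p = 0.00333 and 0.00311). Their medians were 0.14, 0.01 and 0.10.

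Of 17 surface markers and products of Th2 cells and ILC2, 1 rose in each sex and 5 in the average, with medians of 0.18, 0.06 and 0.13. The largest 4 in the average were the anti-inflammatory cytokine Il10 at 0.69 ± 0.09, the follicular helper cytokine Il21 at 0.47 ± 0.11, the costimulatory receptor Icos at 0.44 ± 0.10 and Tnfrsf4, which encodes OX40, at 0.23 ± 0.05 (limma adjusted p = 0.000119, 0.00994, 0.00723 and 0.0101). The probe set of Il10 was dim, with means of 5.08 in SHS females, 4.36 in air females, 4.96 in SHS males and 4.29 in air males. As for Il5, there is no detection call for it. Of 7 alarmins and receptors upstream of the cytokines, 1 rose in females, 1 rose and 1 fell in males, and 1 rose and 2 fell in the average, with medians of 0.08, 0.11 and 0.10. Il33 rose by 0.70 ± 0.09, while Tslp fell by 0.54 ± 0.10 and Il18 by 0.66 ± 0.16 (limma adjusted p = 0.000123, 0.00202 and 0.0149). All the genes named from these lists for the average passed there with any 1 array left out.

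The counts of these smaller lists within a sex turned on single arrays. In females they were highest without SHS female replicate 4, at 3 of the shared chains and kinases, 5 of the Th2 and Th9 factors, 2 of the opposing regulators, 6 of the surface markers and products and 4 of the alarmins. Without SHS female replicate 2 or 3 none of the shared chains, Th2 and Th9 factors, opposing regulators or alarmins passed in females. The feedback list had 1 call in females without air female replicate 2 or SHS female replicate 1 or 2. In males the Th2 and Th9 factors ranged from 0 (without air male replicate 1 or SHS male replicate 4) to 3 and the surface markers and products from 1 to 4 (both highest without SHS female replicate 4). Without both SHS arrays numbered 4 the average called 4 of the shared chains and kinases, 8 of the Th2 and Th9 factors (6 higher and 2 lower), 4 of the opposing regulators (3 higher and 1 lower) and 7 of the surface markers and products.

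**Figure D4:**
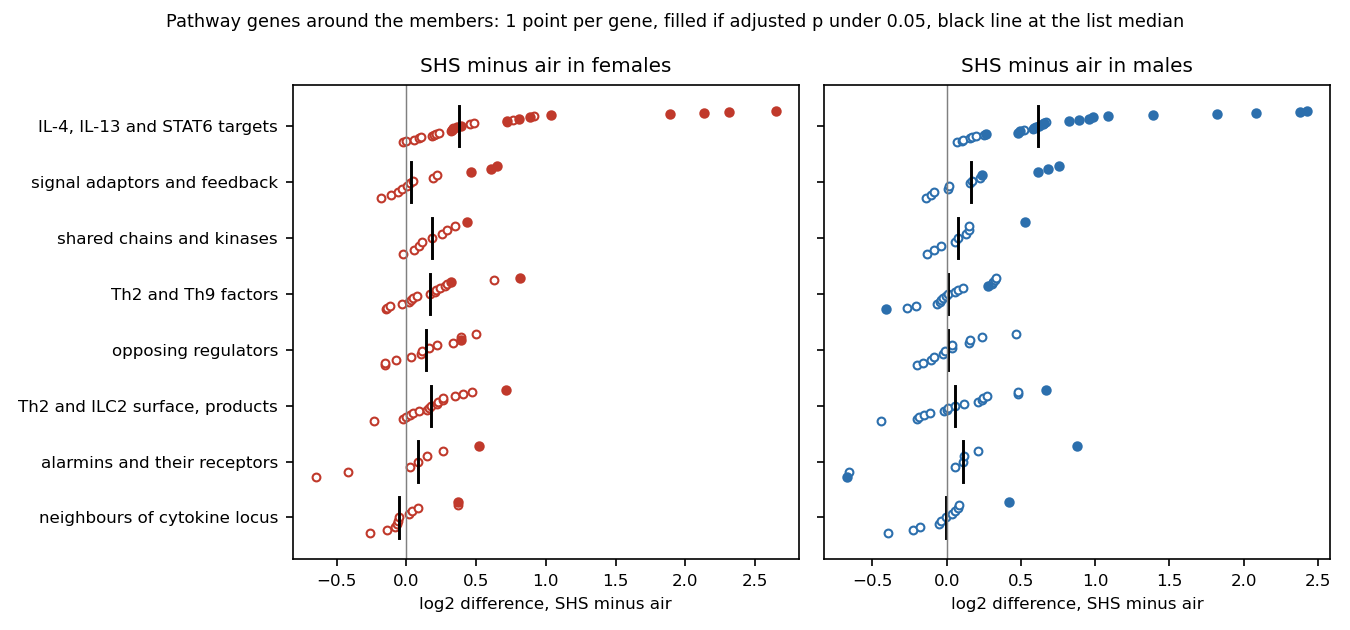
Each point is 1 gene of a pathway list, placed by its log2 difference of SHS minus air in females (left) or males (right), filled where it passed at an adjusted p under 0.05, with the list median as a black line. The IL-4, IL-13 and STAT6 targets have medians of 0.38 in females and 0.61 in males, and the other 7 lists have medians between -0.05 and 0.18.

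Markers of other cells moved with the groups to differing extents. The mean over 6 neutrophil markers was 8.43 to 9.15 in SHS females and 8.28 to 8.81 in air females, and 8.80 to 8.96 in SHS males and 8.38 to 8.75 in air males, without overlap in males. All 6 were above 0 in females, males and the average (medians 0.26, 0.35 and 0.36); Cxcr2 passed in males, and Cxcr2 (0.42) and Csf3r (0.39) in the average. The mean over 10 macrophage markers was 10.44 to 10.83 in SHS females and 10.23 to 10.44 in air females, and 10.35 to 10.47 in SHS males and 10.26 to 10.32 in air males. Mrc1, also among the targets above, passed in both sexes, and Mrc1 (0.69) and Itgax (0.45) in the average, where all 10 were above 0.

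The mean over 9 airway epithelial markers was 10.73 to 11.34 in SHS females and 11.10 to 11.71 in air females, with 0 of 9 above 0. In males it was 10.97 to 11.18 after SHS and 10.77 to 11.27 after air, with overlap and 5 of 9 above 0. Scgb3a2 fell in both sexes by 0.84 and 0.65, and Scgb3a2 and Cyp2f2 fell in the average by 0.75 and 0.38. The mean over 7 heart muscle markers was 9.58 to 10.09 in SHS males and 8.53 to 9.77 in air males, with a median difference of 0.72. In females it was 8.45 to 9.56 after SHS and 8.40 to 9.77 after air, with a median difference of -0.05 and 3 of 7 above 0. None of the 7 passed in any comparison. Of 8 endothelial markers Tek fell in females and in the average (by 0.41), and of 9 alveolar epithelial markers Abca3 fell in males and in the average (by 0.20). Of 8 thymus and lymph node markers Fcer2a, also among the targets above, rose in both sexes and in the average (by 0.96). Of these 8 markers, 4 were above 0 in females, 6 in males and 4 in the average. Of 11 mast cell and basophil markers Mcpt1 rose in males, and Mcpt1 (0.45) and Hdc (0.30) in the average. None of 10 fibroblast and smooth muscle markers passed within a sex, and in the average Acta2 (0.21) and Des (0.21) rose and Pdgfra fell by 0.29. None of 9 B cell and plasma cell and 6 adipose markers passed in any comparison. The part of these cells in the members' differences was not tested.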

How the data were processed

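The submitters' processing notes name limma with no version or role. The authors deposited 1 log2 intensity per probe set and array, with array means of 7.12 to 7.15. Their normalization and the base of the logarithm are not given in the sources used here; the values were used as deposited, and base 2 was taken from the range of values, 2.58 to 15.2. The table holds 45101 features, from which 64 controls were removed. Symbols came from GEO's platform annotation (34945 probe sets with 1 symbol, 932 with several, 9160 with none), and all 10 members matched RefSeq genes of GRCm38.p6 by Entrez identifier.

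Group means were fitted with limma 3.58.1 in R 4.3.3 (data.table version 1.17.8) to all 16 arrays, with 12 residual and 5.56 prior degrees of freedom. Two-sided p was adjusted by Benjamini-Hochberg over 45037 probe sets within each comparison and called under 0.05. SHS minus air was estimated within females, within males and as their average, and the 2 effects were subtracted (females minus males). Errors are standard errors of the model unless given as SD. Only 4 mice per group limited the precision.

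The members, the 8 pathway lists and the 13 cell type lists were chosen with earlier results of these data known. All members are named, and from each pathway list up to 4 called genes with the largest difference in a comparison. The labels do not say whether the same replicate number in SHS and air arrays pairs samples, and the main fit did not pair them. The correlations of same-numbered deviations from group means were -0.08 to 0.267 in females and 0.02 to 0.115 in males. No reference was computed for these correlations, so they do not settle whether the samples are paired. Alternatives were quantile normalization, median centring, a filter on dim probe sets, a replicate block, 2-group fits, array weights, a trended robust prior, other call rules and leaving out arrays; the list counts without single arrays or both SHS arrays numbered 4 were added after seeing the data. The fit was tested on simulated data. Plots used Python 3.11.15 with matplotlib 3.10.9 and pandas 2.3.3.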

Additional observations from a re-analysis of the deposited data

Results flagged for a closer look

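Among 68 sets of 4 values (17 probe sets in 4 groups), 6 had a single lung far from the other 3 by Dixon's criterion, against 3.4 that chance would give at 1 in 20. Il4 was at 6.17 in SHS female replicate 4, with the other SHS females at 6.71 to 6.81. Il9 was at 6.43 in SHS female replicate 2 (others 6.28 to 6.30) and at 6.13 in air male replicate 3 (others 6.28 to 6.31). Il4ra on 1421034_a_at was at 9.47 in SHS male replicate 4 (others 9.15 to 9.20), Il13ra1 on 1427165_at at 7.60 in SHS male replicate 2 (others 7.83 to 7.87) and Il5ra at 8.32 in air male replicate 2 (others 8.05 to 8.08). The causes were not tested.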

How the results depend on the processing

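Without 1 of the 16 arrays, 657 to 3604 probe sets were called in females, 1073 to 3153 in males, 3514 to 6983 in the average and 0 in the difference between the sexes; among the 17 member probe sets the counts were 0 to 5, 2 to 3, 6 to 7 and 0. The female count of member probe sets was 0 without any air female or without SHS female replicate 1, 2 or 3, and 5 without SHS female replicate 4. With array weights, 3985 probe sets were called in females, 4398 in males and 7717 in the average, with 4 member probe sets in females and 4 in males. Without both SHS arrays numbered 4, a choice that favours larger SHS values, 3954 were called in females and 7520 in the average, with 5 member probe sets in females and 4 in males. The arrays of the 2 groups alone gave 448 calls and 0 member probe sets in females, with fewer arrays in the fit. At an adjusted p under 0.10, 4 member probe sets passed in females and 4 in males. The labels do not say what the replicate number shared by SHS and air arrays stands for. With this number as a replicate block Il5 passed in females (0.47, adjusted p = 0.00649) and males (0.37, adjusted p = 0.0186). Il4ra on 1423996_a_at then passed in females (0.32, adjusted p = 0.0478) and Il13ra1 on 1427165_at did not (-0.27, adjusted p = 0.0587). Some uncalled values near 0 changed sign. In females Il5ra was at 0.094 with array weights and 0.015 without both SHS arrays numbered 4, and in the average 0.0016 without both. With single arrays left out, the ranges in females were -0.223 to 0.0155 for Il5ra (highest without SHS female replicate 4), -0.151 to 0.101 for Gata3 and -0.0531 to 0.0096 for Stat6 on 1426353_at (both highest without air female replicate 1), -0.0903 to 0.0427 for Il4ra on 1447858_x_at (above 0 without air female replicate 2 or 4 or SHS female replicate 3) and -0.0739 to 0.0163 for Il9 (highest without air female replicate 3). In males they were -0.122 to 0.0213 for Il9 (highest without SHS male replicate 2) and -0.0555 to 0.0393 for Stat6 on 1421708_a_at (above 0 without air male replicate 4 or SHS male replicate 2), and in the average -0.118 to 0.0077 for Gata3 (highest without air female replicate 1). The 6 member calls of the average kept their call under quantile normalization, median centring, array weights, the trended robust prior, the replicate block, without both SHS arrays numbered 4 and, except Il5, which that filter removes, after dropping the dimmest 40% of probe sets by their mean. With each gene read by its probe set of smallest p, 3 neighbours of the cytokine locus were called in males and in the average in place of 1, and 6 Th2 and Th9 factors in the average in place of 3. The causes of these changes were not tested.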

Other observations

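Of 11 neighbours of the Il4, Il13 and Il5 genes on chromosome 11, 1 rose in each sex and in the average, Uqcrq, which encodes a subunit of the mitochondrial cytochrome bc1 complex, at 0.37 ± 0.08 in females, 0.42 ± 0.08 in males and 0.39 ± 0.06 in the average (limma adjusted p = 0.0226, 0.00825 and 0.000364). The call in females held in 11 of the 16 fits with 1 array left out (highest adjusted p = 0.0886, without air female replicate 3) and the other calls in all 16. The list median was -0.05 in females, -0.01 in males and -0.04 in the average, and Rad50 and Kif3a, which lie nearest to Il13 and Il4, did not pass in any of the 3.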
